A study of Homo sapiens with 8 samples.

Results

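Wnt ligands, receptors and modulators were examined in Panc-1, a human cell line established from a ductal carcinoma of the pancreas. The members were chosen by a rule on gene symbols, with earlier results of these data known. They cover Wnt ligands and the factors that secrete or inactivate them, Frizzled and other Wnt receptors and the R-spondin receptor axis. They also cover secreted antagonists, the cytoplasmic proteins that carry the signal, the TCF/LEF factors and feedback inhibitors. Of the 70 symbols of these families, 48 had a row among the 13307 genes, and all 48 passed the filter on low values (10 or more normalized counts in 2 or more libraries). The other 22, among them *WNT1*, *WNT3A*, *WIF1*, *LGR5*, the R-spondin genes and *NKD1*, were not analysed here. Cells were transfected with control siRNA (siControl) or with siRNAs against *PHF13* (siPHF13), which encodes a PHD finger protein that binds trimethylated lysine 4 of histone H3. Each was sequenced without cytokine and after 48 h in 10 ng/ml TGFβ (siControl + TGFβ and siPHF13 + TGFβ), with 2 libraries in each of the 4 groups. All groups went through transfection, all come from a single line, and the labels do not state whether libraries of one group came from separate cultures, so that p-values measure only the spread between these libraries, which may be technical.

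Wnt ligands are lipid-modified in the producing cell and bind Frizzled receptors on the receiving cell. Together with LRP5 or LRP6, Frizzled receptors halt the destruction of β-catenin by the complex of AXIN, APC and GSK3. After that, β-catenin activates genes through TCF/LEF factors. ROR and RYK receptors can carry signals that do not pass through β-catenin. R-spondins, acting through LGR receptors, keep the ubiquitin ligases RNF43 and ZNRF3 from removing Frizzled proteins. In carcinoma of the pancreas, Wnt signals and TGFβ are both known for their effects on epithelial and mesenchymal traits.

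Values are normalized counts, that is read counts of a gene divided by a size factor of the library, and rested on 39196214 to 46700806 reads per library. *PHF13* had 1804.0 and 1662.4 normalized counts in the siControl libraries against 524.2 and 558.3 in the siPHF13 libraries, and with TGFβ 1585.9 and 1709.5 against 512.8 and 529.4, so that the depletion was present in each library labelled siPHF13. All 5 ductal and epithelial markers checked were present, and their summed level was 193424 to 203975 normalized counts in siControl, 171764 to 194400 in siPHF13, 121692 to 127368 in siControl + TGFβ and 138409 to 150094 in siPHF13 + TGFβ libraries. Single epithelial genes differed in direction after depletion without TGFβ, with *KRT18* lower (47375.0 and 49041.0 against 36744.4 and 39774.6), *EPCAM* higher (157.4 and 157.7 against 240.7 and 305.8) and *CDH1*, checked for the TGFβ treatment, lower (403.1 and 459.5 against 106.4 and 232.8). The acinar, islet and endothelial markers had no row. *CD68*, the 1 leukocyte marker of 3 with a row, ranged from 6137.4 to 7666.3 in siControl and from 10523.9 to 13400.2 in siPHF13 libraries, with and without TGFβ. Of 5 fibroblast markers *COL1A1*, also a known TGFβ target, and *PDGFRB* had a row, with a summed level of 3371 to 3462 in siControl, 1917 to 1970 in siPHF13, 15360 to 16471 in siControl + TGFβ and 4736 to 4946 in siPHF13 + TGFβ libraries. These markers move with the groups compared below, and their part in the results was not tested.

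Differences were tested with limma on log2(normalized count + 1), in one fit over all 8 libraries, and p-values were adjusted over the 13307 genes by the Benjamini-Hochberg method. A gene was called higher or lower at an adjusted p under 0.05 together with an absolute log2 fold change over 0.58. Fold changes are on that log2 scale and are followed by their standard error (SE).

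Promoter sequence is shown for the 4 members with the largest falls after depletion without TGFβ, all of which were also called lower after depletion with it. RefSeq gives a promoter of 300 bases, from 250 before to 50 after the start, for 35 of the 48 members on GRCh38.p14. Written 5′ to 3′ on the strand of the gene, with GC boxes (GGGCGGG or CCCGCCC) and CCAAT boxes (CCAAT or ATTGG) in capitals, they read as follows, with *LEF1* at chr4:108166252-108166551 on the minus strand, *FZD1* at chr7:91264183-91264482 on the plus strand, *WNT9A* at chr1:227947883-227948182 on the minus strand and *ROR1* at chr1:63773767-63774066 on the plus strand.
LEF1: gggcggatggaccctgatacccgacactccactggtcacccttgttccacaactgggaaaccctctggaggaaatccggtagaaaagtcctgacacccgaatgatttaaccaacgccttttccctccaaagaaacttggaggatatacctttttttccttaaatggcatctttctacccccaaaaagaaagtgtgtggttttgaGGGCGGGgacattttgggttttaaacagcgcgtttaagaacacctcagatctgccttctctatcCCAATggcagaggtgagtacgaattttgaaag
FZD1: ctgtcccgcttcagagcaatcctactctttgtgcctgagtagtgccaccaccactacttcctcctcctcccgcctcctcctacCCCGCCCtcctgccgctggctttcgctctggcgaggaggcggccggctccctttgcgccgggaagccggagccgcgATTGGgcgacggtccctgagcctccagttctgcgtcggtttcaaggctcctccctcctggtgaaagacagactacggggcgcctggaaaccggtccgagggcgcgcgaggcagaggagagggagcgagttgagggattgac
WNT9A: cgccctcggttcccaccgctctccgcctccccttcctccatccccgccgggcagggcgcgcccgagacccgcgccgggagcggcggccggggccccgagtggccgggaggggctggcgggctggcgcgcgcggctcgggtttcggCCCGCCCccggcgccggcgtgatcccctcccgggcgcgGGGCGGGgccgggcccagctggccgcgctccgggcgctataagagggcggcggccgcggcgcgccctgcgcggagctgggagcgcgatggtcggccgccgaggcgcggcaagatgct
ROR1: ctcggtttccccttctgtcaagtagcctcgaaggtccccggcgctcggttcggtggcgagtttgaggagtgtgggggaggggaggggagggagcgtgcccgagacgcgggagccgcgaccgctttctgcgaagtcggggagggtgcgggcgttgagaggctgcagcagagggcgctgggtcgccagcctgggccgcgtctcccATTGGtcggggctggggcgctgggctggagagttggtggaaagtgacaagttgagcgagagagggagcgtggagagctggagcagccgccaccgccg
The *WNT9A* window held 2 GC boxes, the windows of *LEF1* and *FZD1* held 1 GC box and 1 CCAAT box each, and that of *ROR1* held 1 CCAAT box. A GC box was present in 26 of the 46 promoters of members (56.5%) and in 33.1% of all 35116 promoters, and a CCAAT box in 20 (43.5%) and 34.6%. The bases G and C made up a median of 67.0% of the members' promoters and 58.7% of all promoters. A TCF/LEF motif (CTTTGAT or CTTTGAA, both strands) was found in 1 of 46, that of *DKK1*, and in 6.86% of all promoters. The AP1 motif TGACTCA was found, on either strand, in 1 of 46, that of *RNF43*, and in 4.95% of all promoters. The SMAD motif GTCTAGAC was found in 0 of 46 and in 0.202% of all promoters. These are matches of letters in short windows and describe the sequence only.

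The levels of the members in siControl cells, as normalized counts per kb of the canonical transcript, spanned 3 orders of magnitude. *DKK1*, a secreted inhibitor of LRP5 and LRP6, stood highest at 3852 per kb, and its range between the libraries did not touch that of the co-receptor gene *LRP5* (3285 per kb), the next in order. *DKK3*, a secreted relative of DKK1, followed at 2302 per kb and *LGR4*, an R-spondin receptor, at 2173, with libraries that did not overlap (2275.2 and 2328.5 against 2114.6 and 2230.7). Among ligands the order was *WNT7B* at 1417 per kb, *WNT5B* at 393, *WNT9A* at 195 and *WNT10A* at 116, with no overlap between neighbours. Among the Frizzled genes *FZD6* (377 per kb) and *FZD7* (223 per kb) led, whereas *FZD3* had 3.07 per kb, *WNT16* 5.96 and *AXIN2* 6.89, the 3 lowest means of the set. The libraries of *WNT16* and *AXIN2* overlapped, so that the order of these neighbours is not settled, while those of *FZD3* lay below both.

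**Figure D1:**
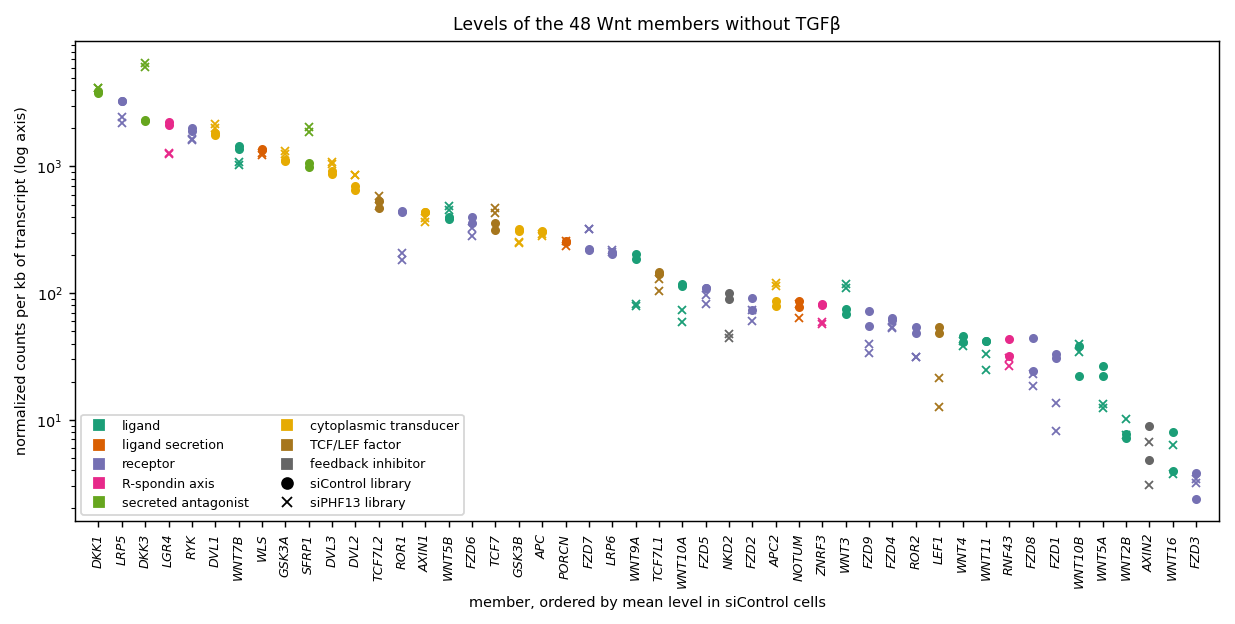
Levels of the 48 Wnt members without TGFβ. The vertical log axis gives normalized counts per kb of the canonical transcript, circles are the 2 siControl libraries, crosses the 2 siPHF13 libraries and colours the roles. *DKK1* and *LRP5* lead in siControl cells, and the crosses of *DKK3*, *SFRP1*, *ROR1*, *WNT9A*, *LEF1* and *FZD1* lie apart from their circles.

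The first comparison asked how depletion of PHF13 changes the Wnt members without TGFβ. *DKK3*, *SFRP1* and *WNT3* rose, while the ligand genes *WNT9A*, *WNT5A* and *WNT10A*, the receptor genes *FZD1*, *FZD9*, *ROR1*, *ROR2* and *LGR4*, the transcription factor gene *LEF1* and the feedback gene *NKD2* fell. In all, 13 of 48 members (27.1%) were called, where 18.4% of all genes were. The 10 lower members make up 20.8% of the set against 10.4% of all genes, and the 3 higher members 6.25% against 7.95%. Of the 48 fold changes 31 (64.6%) were below 0, against 50.1% of all genes, with a median of -0.21 against -0.00094 over all genes. Both siPHF13 libraries lay above both siControl libraries in 13 members and below them in 26, which together are 81.2% of the set, and 77.3% of all genes lay apart in this way. In such bulk samples, fewer cells of a type and less RNA per cell cannot be told apart.

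In TGFβ-treated cells, depletion changed 10 of 48 members (20.8%), about the share of all genes (20.5%). The 2 higher members, *DKK3* and *SFRP1*, are 4.17% of the set against 8.81% of all genes, and the 8 lower members are 16.7% against 11.7%. The median fold change was -0.27 over the members and 0.0034 over all genes. The groups lay apart in 34 members (70.8%), and in 71.7% of all genes. Of the 10 members lower without TGFβ, 7 (70%) were also called lower with it, which are 87.5% of the 8, namely *FZD1*, *FZD9*, *LEF1*, *ROR1*, *ROR2*, *WNT5A* and *WNT9A*. Both members higher with TGFβ (100%) were among the 3 higher without it (66.7%). The overlap of calls was not counted over all genes, so that these shares have no background to set them against. The fold changes of both depletion comparisons, which share no library, had the same sign in 41 members (85.4%), close to the 84.5% found over all genes.

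**Figure D2:**
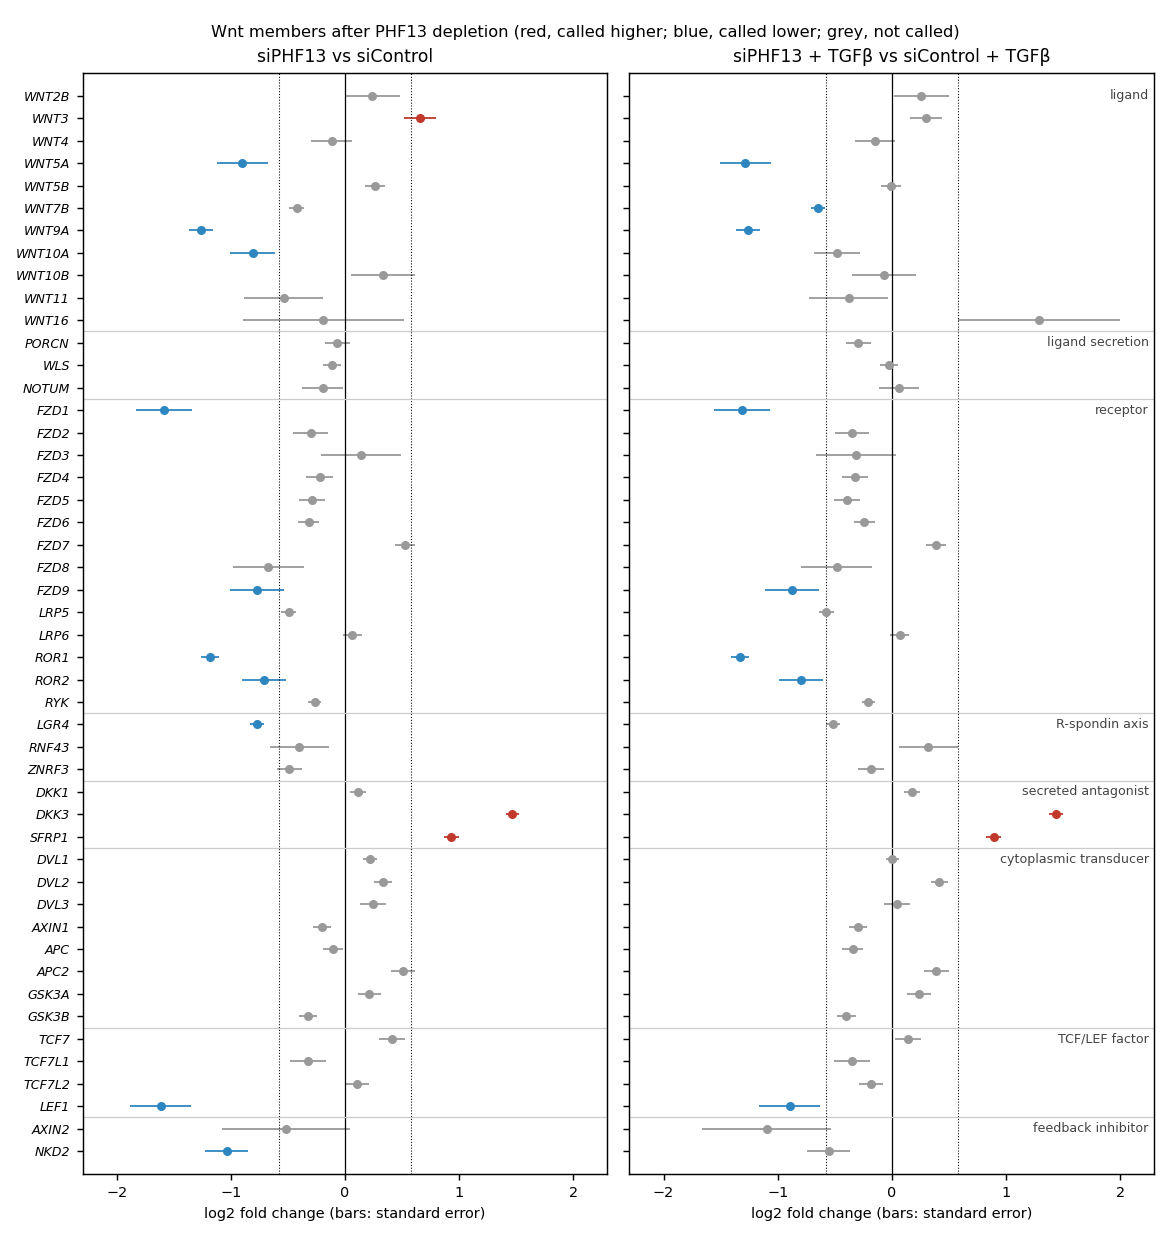
Log2 fold changes after PHF13 depletion for the 48 members, grouped by role. Points are estimates from limma, bars are standard errors, dotted lines mark absolute log2 fold changes of 0.58, and the panels show cells without TGFβ (left) and with TGFβ (right). *DKK3* and *SFRP1* are called higher in both panels, and *FZD1*, *FZD9*, *ROR1* and *ROR2* among the receptors are called lower in both.

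TGFβ in siControl cells changed 6 of 48 members (12.5%), where 4.79% of all genes were called. *NOTUM*, *TCF7*, *WNT9A* and *WNT3* rose (8.33% of members against 3.27% of all genes) and *WNT10A* and *LGR4* fell (4.17% against 1.52%). The median fold change was 0.05 over the members, and the groups lay apart in 32 members (66.7%) and in 60.2% of all genes. This count was the least stable, since without siControl replicate 2 it was 3. In siPHF13 cells TGFβ changed 2 members (4.17%), *NOTUM* and *WNT9A*, both higher, against 1.35% of all genes in either direction, 1.13% higher and 0.218% lower. There the groups lay apart in 24 members (50%) and in 39.8% of all genes. Both of these members were also among the 4 that rose in siControl cells, an overlap that was not counted over all genes. The interaction, which sets the TGFβ response of siPHF13 cells against that of siControl cells, was called for 0 of 48 members, and for 0.308% of all genes. With limma 4 of 48 members had an unadjusted p under 0.05 for this difference, namely *LGR4*, *WNT7B*, *DVL1* and *WNT5B*. Over all genes, 1259 of 13307 had such a p, so that the members do not stand out. With edgeR 4 and with DESeq2 3 members did so, against 1274 and 1113 of all genes, and neither tool called any member. A response called in siControl and not in siPHF13 cells is therefore not shown to differ between them.

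**Figure D3:**
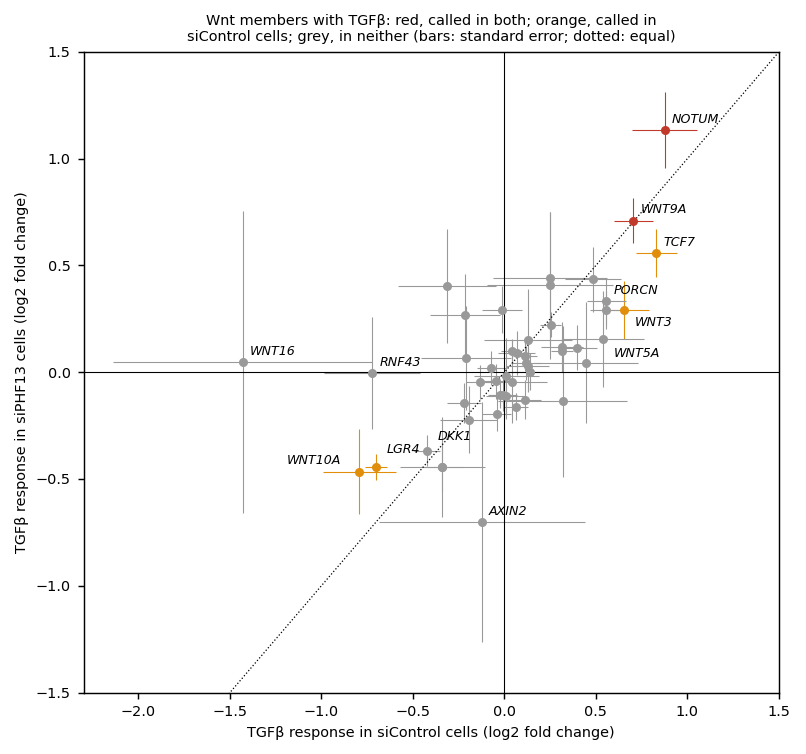
Response of the 48 members to TGFβ in siControl cells (horizontal axis) and in siPHF13 cells (vertical axis), as log2 fold changes with standard errors. The dotted line marks equal responses. *NOTUM* and *WNT9A* (red) are called in both, and *TCF7*, *WNT3*, *WNT10A* and *LGR4* (orange) in siControl cells.

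**Figure D4:**
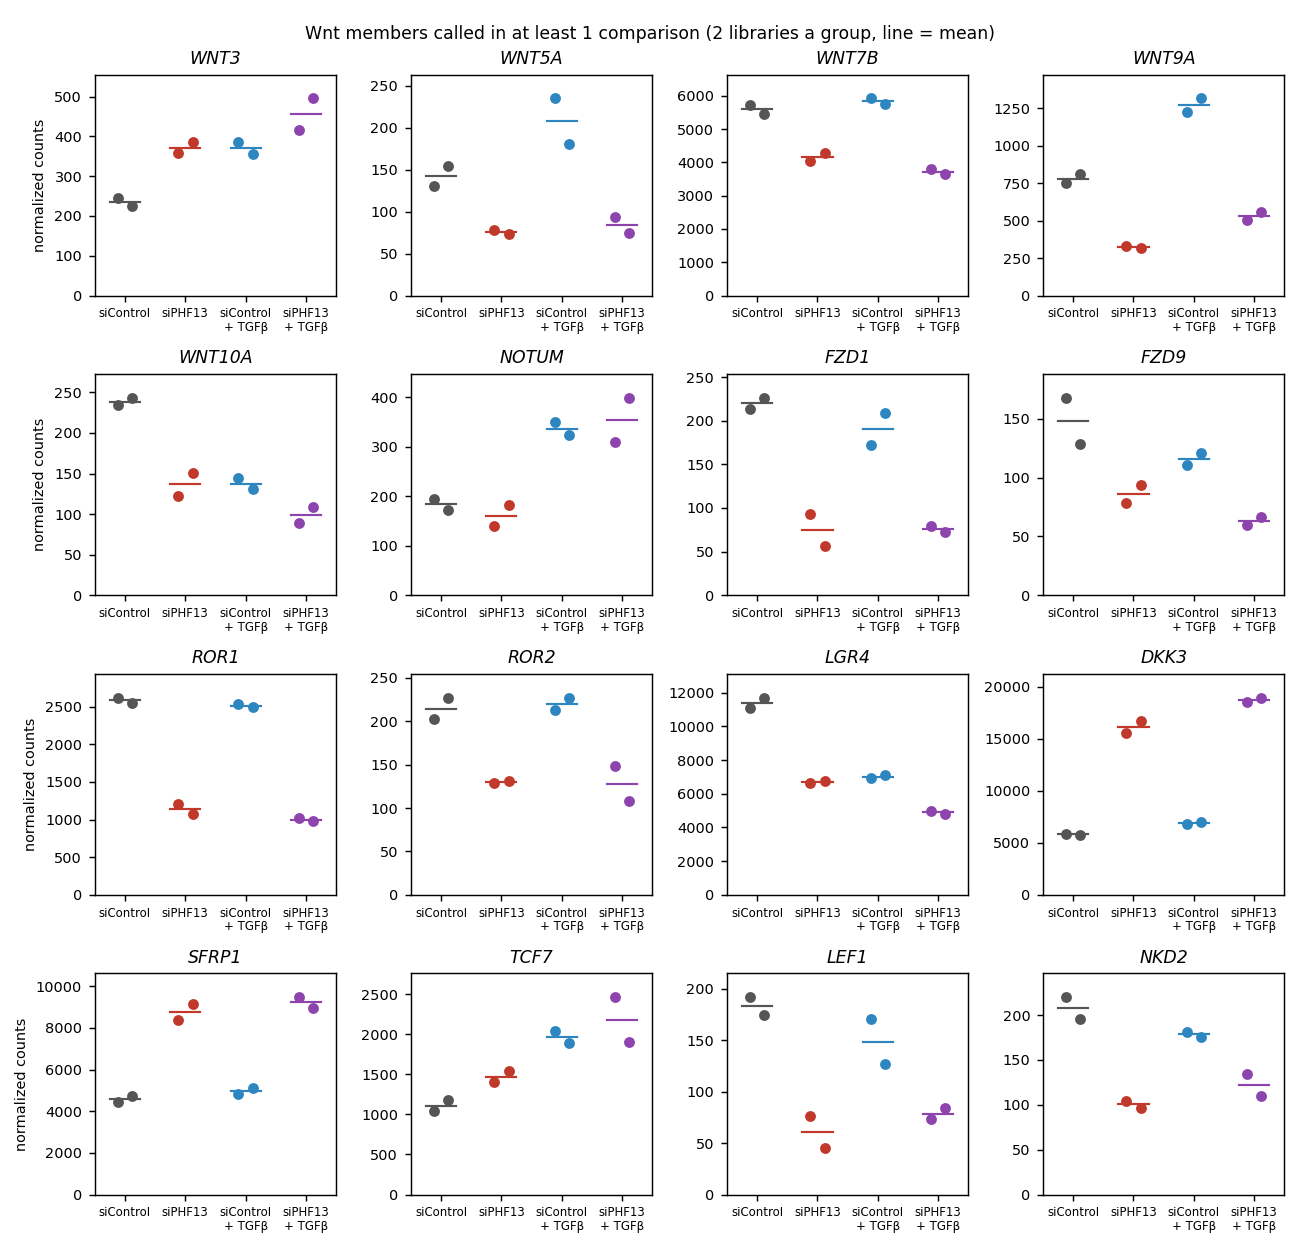
Normalized counts of the 16 members called in at least 1 comparison, 1 panel per gene with its axis from 0. Each point is a library and each line the mean of 2 libraries. In *ROR1* both siPHF13 groups lie below both siControl groups, in *DKK3* and *SFRP1* above them, and in *LGR4* the siControl libraries stand above the other 3 groups.

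Among the ligand genes, *WNT9A* (chromosome 1, 228106357 to 228135633, minus strand, GRCh37) moved in all 4 comparisons of groups. It had 750.2 and 808.2 normalized counts in siControl, 328.2 and 319.6 in siPHF13, 1226.9 and 1315.5 in siControl + TGFβ and 504.1 and 558.2 in siPHF13 + TGFβ libraries. No 2 groups overlapped, and siPHF13 cells with TGFβ stayed below siControl cells without it, at 68.2% of their mean. Depletion lowered it by the same amount without and with TGFβ, with log2 fold changes of -1.26 (SE 0.11, adjusted p = 5.63e-07) and -1.26 (SE 0.11, adjusted p = 4.99e-07). TGFβ raised it by 0.71 in siControl (SE 0.11, adjusted p = 0.000409) and by 0.71 in siPHF13 cells (SE 0.11, adjusted p = 0.00134).

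*WNT5A*, the classical ligand of ROR receptors, lies on chromosome 3 (55499743 to 55524567, minus strand). It had 129.9 and 154.1 normalized counts in siControl, 77.6 and 73.0 in siPHF13, 235.0 and 181.0 in siControl + TGFβ and 93.9 and 75.1 in siPHF13 + TGFβ libraries. The siPHF13 libraries, with or without TGFβ, all lay below the siControl libraries. Its log2 fold change was -0.90 without TGFβ (SE 0.22, adjusted p = 0.00444) and -1.29 with it (SE 0.22, adjusted p = 0.000307). Without siControl replicate 2, the value without TGFβ was -0.78 and no longer called. With TGFβ the siControl libraries lay above those without, at 0.54 (SE 0.22), which did not pass the test (adjusted p = 0.125).

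*WNT10A*, a ligand known from skin appendages and teeth, had 234.3 and 243.3 normalized counts in siControl, 122.3 and 150.9 in siPHF13, 144.5 and 130.6 in siControl + TGFβ and 88.5 and 108.8 in siPHF13 + TGFβ libraries. It was highest in siControl cells, and the groups with depletion alone and with TGFβ alone overlapped. Depletion lowered it by a log2 fold change of -0.81 (SE 0.20, adjusted p = 0.00411) and TGFβ by -0.79 (SE 0.20, adjusted p = 0.0144). The call with TGFβ was lost without any 1 of the 4 libraries compared, with values from -0.86 to -0.72 and adjusted p from 0.0505 to 0.116. In TGFβ-treated cells the effect of depletion was -0.48 (SE 0.20, adjusted p = 0.0569), and without siPHF13 + TGFβ replicate 2 it was called at -0.63.

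*WNT3*, a ligand that activates β-catenin, went the other way. It had 245.7 and 224.4 normalized counts in siControl, 358.1 and 384.7 in siPHF13, 384.9 and 354.9 in siControl + TGFβ and 416.7 and 495.7 in siPHF13 + TGFβ libraries. The siControl libraries were the lowest, depletion alone and TGFβ alone overlapped, and both together were the highest. The log2 fold change was 0.66 with depletion (SE 0.14, adjusted p = 0.0014) and 0.65 with TGFβ (SE 0.14, adjusted p = 0.00502). Without siControl replicate 2 or siControl + TGFβ replicate 1, the rise with TGFβ was 0.59 and was not called. Per kb of transcript, *WNT9A* was above *WNT3* in siControl cells (187.3 and 201.8 against 74.7 and 68.3) and below it in siPHF13 cells (82.0 and 79.8 against 108.9 and 117.0).

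*WNT7B*, the ligand with the highest level per kb, had 5724.0 and 5461.0 normalized counts in siControl, 4051.2 and 4284.1 in siPHF13, 5925.2 and 5755.8 in siControl + TGFβ and 3806.4 and 3640.2 in siPHF13 + TGFβ libraries. Both siPHF13 groups lay below both siControl groups. The log2 fold change of depletion was -0.65 with TGFβ (SE 0.06, adjusted p = 2.04e-06) and was called, whereas that without TGFβ was -0.42 (SE 0.06, adjusted p = 0.0001), under the threshold on the fold change. The test of the difference gave -0.23 (SE 0.09, adjusted p = 0.408).

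The other 6 ligand genes were not called in any comparison. *WNT5B*, from 860.5 to 1336.8 normalized counts over the 8 libraries, was 0.56 higher with TGFβ in siControl cells on the log2 scale (SE 0.09, adjusted p = 0.000589), just under the fold threshold, and was called at 0.59 without siControl replicate 1 and at 0.60 without siControl + TGFβ replicate 2. *WNT4* ranged from 150.1 to 184.1, *WNT2B* from 79.7 to 123.1, *WNT10B* from 50.3 to 99.8 and *WNT11* from 47.3 to 138.0. *WNT16* had between 3.1 and 25.2 normalized counts, and its SE of 0.71 left log2 fold changes as large as -1.43 (TGFβ in siControl cells, adjusted p = 0.205) uncalled.

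Of the genes that act on Wnt ligands themselves, *NOTUM* was called. It encodes a secreted enzyme that removes the lipid from Wnt proteins. It had 193.5 and 173.0 normalized counts in siControl, 140.2 and 181.5 in siPHF13, 349.3 and 324.0 in siControl + TGFβ and 309.8 and 398.5 in siPHF13 + TGFβ libraries. All 4 libraries with TGFβ lay above all 4 without, while siControl and siPHF13 overlapped in either state. TGFβ raised it by 0.88 on the log2 scale in siControl (SE 0.18, adjusted p = 0.00391) and by 1.13 in siPHF13 cells (SE 0.18, adjusted p = 0.00202). Without siControl replicate 2 the rise in siControl cells was 0.79 and not called (adjusted p = 0.0523). *PORCN*, which encodes the enzyme that attaches the lipid, ranged from 439.0 to 718.0 and was 0.56 higher with TGFβ in siControl cells (SE 0.11, adjusted p = 0.00283), under the fold threshold, and at 0.58 without siControl + TGFβ replicate 2 just past it. *WLS*, which encodes the carrier that brings Wnt proteins to the cell surface, stayed between 3253.7 and 3774.8 and was not called.

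Of the 14 genes of Frizzled, LRP, ROR and RYK receptors, the same 4 (28.6%) were called lower after depletion without and with TGFβ, against 10.4% and 11.7% of all genes. *ROR1* (chromosome 1, 64239688 to 64647181, plus strand) encodes a receptor for WNT5A that is low in most adult tissues. It had 2619.7 and 2551.7 normalized counts in siControl, 1204.5 and 1077.2 in siPHF13, 2529.2 and 2492.2 in siControl + TGFβ and 1015.8 and 975.0 in siPHF13 + TGFβ libraries. All siPHF13 libraries held fewer than all siControl libraries, with means of 44.1% and 38.5% of that in siControl. The log2 fold changes were -1.18 (SE 0.08, adjusted p = 8.62e-08) without and -1.33 (SE 0.08, adjusted p = 2.41e-08) with TGFβ, and with TGFβ alone the value was -0.04 (SE 0.08, adjusted p = 0.789).

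*ROR2*, the other ROR receptor gene, had 202.0 and 226.2 normalized counts in siControl, 129.3 and 131.2 in siPHF13, 212.4 and 227.3 in siControl + TGFβ and 147.9 and 107.8 in siPHF13 + TGFβ libraries. As for *ROR1*, the siPHF13 libraries lay below the siControl libraries in either state. Its log2 fold changes were -0.71 (SE 0.19, adjusted p = 0.0077) and -0.79 (SE 0.19, adjusted p = 0.0035). Without siControl replicate 2 the first was -0.63, and without siPHF13 + TGFβ replicate 2 the other was -0.57, and neither was then called.

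*FZD1* (chromosome 7, 90893748 to 90900641, plus strand), a Frizzled receptor gene, had 213.4 and 226.2 normalized counts in siControl, 93.5 and 56.2 in siPHF13, 172.5 and 208.8 in siControl + TGFβ and 79.9 and 72.2 in siPHF13 + TGFβ libraries. No siPHF13 library reached a siControl library. The log2 fold change was -1.59 (SE 0.24, adjusted p = 0.00013) without and -1.31 (SE 0.24, adjusted p = 0.000538) with TGFβ. *FZD9*, another Frizzled gene, had 167.9 and 128.8 normalized counts in siControl, 78.6 and 93.7 in siPHF13, 111.0 and 121.4 in siControl + TGFβ and 59.4 and 66.4 in siPHF13 + TGFβ libraries. Its libraries were also lower with depletion in each state. The log2 fold changes were -0.77 (SE 0.23, adjusted p = 0.0145) and -0.88 (SE 0.23, adjusted p = 0.0064), and without TGFβ the call was lost without siControl replicate 1 (-0.58) or siPHF13 replicate 1 (-0.64).

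*FZD7*, a further Frizzled gene, had 1031.0 and 1012.7 normalized counts in siControl and 1482.0 and 1458.0 in siPHF13 libraries, and with TGFβ 1054.4 and 1199.3 against 1418.5 and 1530.4. The siPHF13 libraries lay above in both states, with log2 fold changes of 0.52 (SE 0.09, adjusted p = 0.000273) and 0.39 (SE 0.09, adjusted p = 0.00229), under the fold threshold. *FZD6* had 0.32 lower values on that scale without TGFβ (log2 fold change -0.32, SE 0.09, adjusted p = 0.0114). Per kb of transcript, *FZD6* stood above *FZD7* in siControl cells (359.5 and 395.4 against 224.8 and 220.8), whereas in siPHF13 cells their libraries overlapped (323.6 and 282.1 against 323.1 and 317.9).

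*LRP5*, the co-receptor gene with the highest level per kb, had 17007.9 and 17004.7 normalized counts in siControl, 11434.5 and 12747.9 in siPHF13, 17220.3 and 16244.0 in siControl + TGFβ and 11423.6 and 11036.0 in siPHF13 + TGFβ libraries. It lay lower in all siPHF13 libraries, at log2 fold changes of -0.49 (SE 0.06, adjusted p = 3.01e-05) and -0.57 (SE 0.06, adjusted p = 6.93e-06), both short of the fold threshold. With TGFβ it was called at -0.62 without siControl + TGFβ replicate 2 and at -0.60 without siPHF13 + TGFβ replicate 1. Its partner *LRP6* ranged from 1976.0 to 2332.9 and was 0.07 on the log2 scale from siControl in both states (SE 0.08, adjusted p = 0.553 and 0.531).

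The remaining receptor genes were not called. *FZD8* ranged from 75.0 to 203.8 normalized counts, with a log2 fold change of -0.67 after depletion without TGFβ (SE 0.31, adjusted p = 0.0911) that was called at -1.10 without siControl replicate 2. *FZD2* ranged from 228.8 to 437.7, *FZD3* from 32.4 to 52.2, *FZD4* from 383.2 to 513.3, *FZD5* from 450.2 to 775.8 and *FZD6* from 1017.4 to 1474.1. *RYK*, a receptor with an inactive kinase, ranged from 4923.4 to 6168.3. Under the fold threshold, *RYK* had a log2 fold change of -0.27 after depletion without TGFβ (SE 0.06, adjusted p = 0.00209). With TGFβ it was -0.21 (SE 0.06, adjusted p = 0.00943). *FZD5* had -0.29 (SE 0.11, adjusted p = 0.0487) and -0.40 (SE 0.11, adjusted p = 0.0103) in the same order. Depletion with TGFβ gave *FZD4* -0.32 (SE 0.12, adjusted p = 0.0338) and *FZD6* -0.24 (SE 0.09, adjusted p = 0.0407). *FZD2* rose by 0.48 with TGFβ in siControl cells (SE 0.15, adjusted p = 0.0447).

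*LGR4* (chromosome 11, 27387508 to 27494337, minus strand) was lower with either treatment. It had 11101.8 and 11711.3 normalized counts in siControl, 6612.4 and 6749.3 in siPHF13, 6911.6 and 7119.7 in siControl + TGFβ and 5000.4 and 4823.1 in siPHF13 + TGFβ libraries. None of the 4 groups overlapped, and the means were 58.6%, 61.5% and 43.1% of that in siControl. Depletion gave -0.77 on the log2 scale (SE 0.06, adjusted p = 2.65e-07) and TGFβ -0.70 (SE 0.06, adjusted p = 2.86e-06). In cells that had the other treatment too, both effects passed the adjusted p but not the fold threshold, at -0.51 for depletion (SE 0.06, adjusted p = 8.95e-06) and -0.44 for TGFβ (SE 0.06, adjusted p = 0.000579). The difference between the TGFβ responses was 0.26 (SE 0.08, adjusted p = 0.282).

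The ligase genes of the same axis were not called. *RNF43* ranged from 82.3 to 198.2 normalized counts. Its log2 fold change with TGFβ in siControl cells was -0.72 (SE 0.26, adjusted p = 0.079), and -0.72 was called when only the libraries compared were fitted or when siPHF13 + TGFβ replicate 1 or 2 was left out. *ZNRF3* ranged from 389.6 to 572.9, with -0.49 after depletion without TGFβ (SE 0.11, adjusted p = 0.00239).

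Among the genes listed as secreted antagonists, *DKK3* (chromosome 11, 11977754 to 12031316, minus strand) showed the largest rise of the set after depletion. It was listed there as a relative of *DKK1*, and whether it acts on Wnt signals in these cells was not tested. It had 5879.6 and 5744.8 normalized counts in siControl, 15509.6 and 16657.2 in siPHF13, 6855.5 and 6993.2 in siControl + TGFβ and 18565.8 and 18953.4 in siPHF13 + TGFβ libraries. All siPHF13 libraries stood far above all siControl libraries. The log2 fold changes were 1.47 (SE 0.06, adjusted p = 1.21e-09) and 1.44 (SE 0.06, adjusted p = 9.36e-10). Per kb of transcript it passed *DKK1* in siPHF13 cells (6142.4 and 6596.9 against 4179.7 and 4172.0). *DKK3* shares 5681 of its 11958 exon bases with *USP47* on the other strand, and whether the counting used strand is not given in the sources used here. *USP47* had 5460.3 and 5294.3 normalized counts in siControl and 6419.5 and 6176.1 in siPHF13 libraries, a log2 fold change of 0.23 (SE 0.06, adjusted p = 0.00765).

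*SFRP1*, which encodes a secreted protein that binds Wnt ligands through a Frizzled-like domain, had 4455.9 and 4743.8 normalized counts in siControl, 8402.8 and 9145.4 in siPHF13, 4837.4 and 5102.7 in siControl + TGFβ and 9479.4 and 8982.0 in siPHF13 + TGFβ libraries. The siPHF13 libraries were higher in each state without overlap. The log2 fold change was 0.93 (SE 0.07, adjusted p = 1.4e-07) without and 0.89 (SE 0.07, adjusted p = 1.78e-07) with TGFβ. *DKK1* had 7097.4 and 6808.0 normalized counts in siControl, 7544.4 and 7530.5 in siPHF13, 5158.6 and 5193.2 in siControl + TGFβ and 5418.2 and 6301.4 in siPHF13 + TGFβ libraries. Its libraries were lower with TGFβ in both kinds of cells, at -0.43 (SE 0.07, adjusted p = 0.000983) and -0.37 (SE 0.07, adjusted p = 0.01), which did not pass the fold threshold.

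The 8 genes of the cytoplasmic transducers were called in none of the comparisons. *DVL1*, *DVL2* and *DVL3*, whose products link Frizzled to the destruction complex, ranged from 5835.8 to 7455.0, from 1734.6 to 2552.9 and from 4609.6 to 7101.2 normalized counts. Under the fold threshold, *DVL2* had log2 fold changes of 0.33 (SE 0.08, adjusted p = 0.00336) and 0.42 (SE 0.08, adjusted p = 0.000587) after depletion without and with TGFβ. *DVL1* had 0.22 (SE 0.06, adjusted p = 0.00773) after depletion without TGFβ and 0.32 (SE 0.06, adjusted p = 0.00243) with TGFβ in siControl cells. *AXIN1*, the scaffold of that complex, ranged from 1298.4 to 1613.3 and *APC*, which binds β-catenin in it, from 2522.7 to 3755.3. After depletion *AXIN1* had -0.20 without (SE 0.08, adjusted p = 0.0484) and -0.30 with TGFβ (SE 0.08, adjusted p = 0.0059), and *APC* had -0.34 with TGFβ (SE 0.09, adjusted p = 0.0064). *APC2*, a relative of APC, ranged from 785.8 to 1222.4, was 0.51 higher after depletion without TGFβ on the log2 scale (SE 0.11, adjusted p = 0.00143) and at 0.58 without siControl replicate 1 just passed the threshold. The kinase genes *GSK3A* and *GSK3B* ranged from 2321.5 to 3331.4 and from 1845.1 to 2662.9. *GSK3B* had -0.32 (SE 0.08, adjusted p = 0.00473) and -0.40 (SE 0.08, adjusted p = 0.00104) after depletion without and with TGFβ, and *GSK3A* had 0.21 (SE 0.10, adjusted p = 0.0988) and 0.24 (SE 0.10, adjusted p = 0.0672).

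The genes of the TCF/LEF factors differed among themselves. *LEF1* (chromosome 4, 108968701 to 109090112, minus strand) had 191.6 and 173.9 normalized counts in siControl, 76.6 and 45.4 in siPHF13, 170.3 and 126.5 in siControl + TGFβ and 73.4 and 83.7 in siPHF13 + TGFβ libraries. The siPHF13 libraries lay below the siControl libraries in both states, at 33.4% of the siControl mean without TGFβ. The log2 fold change was -1.61 (SE 0.27, adjusted p = 0.000232), the largest fall of the set, and -0.90 with TGFβ (SE 0.27, adjusted p = 0.0124). The call with TGFβ was lost without siControl + TGFβ replicate 1, at -0.68. The TGFβ responses differed by 0.72 (SE 0.38, adjusted p = 0.60), which did not pass the test.

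*TCF7* had 1038.6 and 1175.8 normalized counts in siControl, 1401.5 and 1542.8 in siPHF13, 2044.1 and 1892.5 in siControl + TGFβ and 2464.6 and 1901.9 in siPHF13 + TGFβ libraries. All libraries with TGFβ lay above all without. It rose by 0.83 on the log2 scale with TGFβ in siControl cells (SE 0.11, adjusted p = 0.000188). In siPHF13 cells the value was 0.56 (SE 0.11, adjusted p = 0.0131), under the fold threshold, and 0.74 and called without siPHF13 + TGFβ replicate 2. After depletion without TGFβ, *TCF7* was 0.41 higher (SE 0.11, adjusted p = 0.00832), also under the fold threshold. *TCF7L2* ranged from 1906.4 to 2885.0 and *TCF7L1*, mostly a repressor, from 258.9 to 441.5, and neither was called. Under the fold threshold, *TCF7L2* was 0.40 higher with TGFβ in siControl cells (SE 0.10, adjusted p = 0.0191).

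Of the feedback inhibitors, *NKD2*, whose product binds Dishevelled proteins, had 220.0 and 195.5 normalized counts in siControl, 104.4 and 96.7 in siPHF13, 181.1 and 175.9 in siControl + TGFβ and 133.9 and 109.7 in siPHF13 + TGFβ libraries. The siPHF13 libraries were lower in both states. Its log2 fold change was -1.04 without TGFβ (SE 0.19, adjusted p = 0.000519) and -0.55 with it (SE 0.19, adjusted p = 0.0259), which missed the fold threshold but was called at -0.70 without siPHF13 + TGFβ replicate 1. *AXIN2*, a widely used target gene of β-catenin that encodes a second scaffold of the destruction complex, had from 8.7 to 37.9 normalized counts. It was not called in any comparison, with -0.52 after depletion without TGFβ (SE 0.56, adjusted p = 0.476) and a value of 0.026 without siPHF13 replicate 1.

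Other genes of the pathway were counted from 4 lists. Of 33 genes that act with β-catenin in the cytoplasm and nucleus, 4 were higher and 5 lower after depletion without TGFβ (27.3%, against 18.4% of all genes), and 0 changed with TGFβ in siControl cells. *AES* (log2 fold change 1.08, SE 0.07, adjusted p = 4.75e-08) and *TLE2* (-0.93, SE 0.33, adjusted p = 0.0302) encode members of the Groucho family. *CBY1* (0.85, SE 0.11, adjusted p = 2.23e-05) encodes an inhibitor of β-catenin and *CTBP2* (-0.82, SE 0.06, adjusted p = 3.43e-07) a corepressor. The named genes of the Groucho family thus moved in opposite directions without TGFβ. After depletion with TGFβ, *TLE2* was not called (-0.51, SE 0.33, adjusted p = 0.208), while *AES*, *CBY1* and *CTBP2* were.

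Of 20 other extracellular or membrane modulators, 5 were higher and 4 lower after depletion without TGFβ (45%, against 18.4% of all genes), and 5 were higher and 0 lower with TGFβ in siControl cells (25%, against 4.79% of all genes). *KREMEN1*, which encodes a receptor for DKK1, had 73.0 and 59.5 normalized counts in siControl and 7.0 and 3.0 in siPHF13 libraries, and with TGFβ 46.4 and 59.7 against 10.8 and 16.4. The siPHF13 libraries stood below all siControl libraries, with a log2 fold change without TGFβ of -3.57 (SE 0.49, adjusted p = 4.99e-05) on a scale that understates the change of low genes. *KREMEN2*, the other receptor gene for DKK1, named after its values were seen, went the other way, with 333.9 and 282.9 against 600.8 and 661.9 normalized counts (1.03, SE 0.13, adjusted p = 2.04e-05), and with TGFβ 244.7 and 238.6 against 562.4 and 601.6 (1.26, SE 0.13, adjusted p = 2.94e-06). *TRABD2A*, which encodes a membrane protease that inactivates Wnt proteins, had 91.1 and 121.6 against 29.8 and 33.5 normalized counts (-1.70, SE 0.31, adjusted p = 0.000514). *DRAXIN* encodes a secreted guidance cue that binds LRP6. With TGFβ in siControl cells it went from 15.2 and 6.3 to 126.1 and 135.8 normalized counts (3.60, SE 0.40, adjusted p = 3.41e-05). *DRAXIN* was also called higher after depletion without TGFβ, at 24.9 and 43.4 normalized counts (1.64, SE 0.40, adjusted p = 0.00384). TGFβ raised it in siPHF13 cells too (2.05, SE 0.40, adjusted p = 0.0101). *SULF2*, a sulfatase of heparan sulfate, went from 31.3 and 43.2 to 114.3 and 85.4 with TGFβ in siControl cells (1.40, SE 0.36, adjusted p = 0.017).

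Of 23 genes of planar cell polarity, 3 rose and 3 fell after depletion in either state (26.1%, against 18.4% of all genes without and 20.5% with TGFβ), and 0 were called with TGFβ in siControl cells. *CELSR3* (1.21, SE 0.12, adjusted p = 1.91e-06) rose and *CELSR2* (-0.88, SE 0.21, adjusted p = 0.0034) fell, both of which encode cadherins of the same family. *FUZ*, a gene of cilium formation, rose (1.02, SE 0.14, adjusted p = 5.74e-05), and *ANKRD6* fell (-1.34, SE 0.31, adjusted p = 0.00299). Of 26 known target genes of β-catenin and TCF outside the members, 5 rose and 6 fell after depletion without TGFβ (42.3%, against 18.4% of all genes), and 6 rose and 0 fell with TGFβ in siControl cells (23.1%, against 4.79%). *CCND1*, which encodes cyclin D1, had 31578.3 and 31165.0 normalized counts in siControl and 15927.3 and 15203.1 in siPHF13 libraries (-1.01, SE 0.06, adjusted p = 2.31e-08). *EPHB3*, an ephrin receptor gene, fell from 74.0 and 59.5 to 28.8 and 11.8 (-1.78, SE 0.49, adjusted p = 0.00883), and *EDN1*, which encodes endothelin-1, rose from 376.5 and 311.7 to 917.1 and 1064.4 (1.53, SE 0.15, adjusted p = 1.78e-06). *EPHB2*, another ephrin receptor gene, rose by 1.58 with TGFβ in siControl cells (SE 0.07, adjusted p = 6.11e-09).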

How the data were processed

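Polyadenylated RNA of 8 Panc-1 libraries, 2 in each of 4 groups given by the labels, was sequenced as paired-end reads. Per the labels and methods, the authors trimmed reads with Trim Galore 0.4.1, aligned them with STAR 2.7.0 to hg19, counted them with HTSeq 0.12.4 and normalized them with DESeq2. The deposited values used here are a signal, that is the read count of each gene over the DESeq2 size factor of its library. The annotation release and strand setting are not given in the sources used here. Tables of the authors' own fold changes and p-values were not used. Within a tolerance of 0.001 all values were whole multiples of one step per library, which gave whole reads for edgeR 4.0.16 and DESeq2 1.42.0. In siPHF13 replicate 1 that step was 0.995, close to 1, but only 0.225% of its values were whole numbers as deposited.

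The main fit was limma 3.58.1 in R 4.3.3 with a trended prior variance on log2(normalized count + 1), without a block for the replicate number. Genes needed 10 normalized counts in at least 2 libraries, which removed none. The procedure was tested on simulated data. Per-kb levels used canonical transcript lengths and GRCh37 positions of GENCODE v44lift37. Members, gene lists, tests and shown promoters were chosen with earlier results of these data known. Each member called in any of 5 comparisons was named with its values, the others with their range, and up to 4 called genes of each further list. *USP47* was added for its overlap. Alternatives were a pseudocount of 5, no minimum, a mean of at least 100, TMM factors, only the libraries compared, a replicate block, edgeR, DESeq2, no fold threshold and each library left out.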

Additional observations from a re-analysis of the deposited data

Results flagged for a closer look

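*EPHB2*, a target gene of β-catenin and TCF outside the members, was the 1 gene of the further pathway lists whose TGFβ response differed between siPHF13 and siControl cells. It had 4495.7 and 4097.8 normalized counts in siControl, 6751.7 and 7360.9 in siPHF13, 12959.7 and 12685.2 in siControl + TGFβ and 12908.0 and 11567.3 in siPHF13 + TGFβ libraries. The groups with TGFβ overlapped, while those without did not. The interaction on the log2 scale was -0.79 (SE 0.10, adjusted p = 0.00298 by limma, Benjamini-Hochberg).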

How the results depend on the processing

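With the fold threshold dropped, the members called numbered 27 of 48 in place of 13 for depletion without TGFβ and 13 in place of 6 for TGFβ in siControl cells. They numbered 24 in place of 10 for depletion with TGFβ and 5 in place of 2 for TGFβ in siPHF13 cells. In the same order, 6308, 2114, 6712 and 409 of all 13307 genes were then called, in place of 2448, 637, 2726 and 179. The counts thus rose over all genes as well. The share called was then higher among members than over all genes, except for depletion with TGFβ. Leaving out each library in turn gave 12 to 13, 3 to 7, 9 to 12 and 2 to 3 members, and 0 for the interaction, and 3 for TGFβ in siControl cells came without siControl replicate 2. A lone library left in a group is then assumed to vary like the others. *AXIN2* after depletion changed sign without siPHF13 replicate 1, with a range of -1.06 to 0.026 over the libraries left out. No pseudocount, filter, scaling or tool ended a call, and 8 of the 31 calls were lost on leaving out some library. The cause was not tested. With a block for the replicate number the counts were 14, 6, 10, 2 and 0, with *FZD8* gained. The deviations of same-numbered libraries correlated between -0.089 and 0.050. These values show no sign that the numbers pair the libraries, but with 1 deviation per group they cannot exclude it.

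Averaged over all genes, the variance between replicates was 3.16 to 24.6 times the counting variance. The members with the largest SE were *WNT16* and *AXIN2*, at 0.71 and 0.56, both low. *RNF43*, *AXIN2*, *WNT2B* and *FZD4* share 4326, 1316, 2665 and 1399 exon bases with another annotated gene, and how such reads were counted is not given in the sources used here.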
